A study of Danio rerio with 6 samples.

Results

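Intermediate filament genes were examined in sorted cells of the zebrafish ventricular apex: the desmin genes desma and desmb, the synemin gene synm, the vimentin gene vim, the nestin gene nes and the lamin genes lmna, lmnb1 and lmnb2. They were chosen by name, and 8 of the 25089 genes in the deposited table belong to the set. Of these, 7 carry their own symbol, and nes was found under a clone name through its gene identifier (ENSDARG00000088805). RNA was measured by sequencing in 6 libraries. There were 3 libraries of regenerating cells, taken 5 days after resection of the ventricular apex and cleared of injury tissue, and 3 of uninjured cells. The sample titles call the cells of both groups cardiomyocytes. All 6 came from the Gata4:GFP line, a transgenic reporter of gata4, which encodes a transcription factor of the developing heart, and cells were sorted by fluorescence. The age of the fish is not stated, nor is whether a library pools animals. The p-values therefore reflect variation among these 6 libraries, which may be technical in part.

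Intermediate filaments are rope-like polymers of coiled-coil proteins that give cells and nuclei mechanical strength. In vertebrate heart muscle, desmin surrounds the Z-discs and ties myofibrils to one another, to junctions and to the nucleus, and synemin is a large partner that assembles with desmin or vimentin. Vimentin is the filament protein of fibroblasts, endothelium and other mesenchymal cells, and nestin is a partner of vimentin best known from neural progenitors and developing muscle. Lamins form the mesh under the inner nuclear membrane. A-type lamins come from lmna and are abundant in stiff, differentiated tissue of mammals, while B-type lamins are made in nearly all cells.

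In regenerating cells the lamin A gene lmna rose and the synemin gene synm fell relative to uninjured cells, and the other 6 genes did not pass the test (limma, adjusted p below 0.05 over all tested genes). Levels are given as scaled FPKM, which is fragments per kilobase of transcript relative to the library's total, after each library was divided by a median-ratio factor, so that the typical gene is level between libraries. Of 13319 tested genes, 7.50% were called higher and 3.94% lower in regenerating cells (11.4% in either direction), beside 1 higher and 1 lower of these 8. These counts are near the background, and with single libraries left out 0 to 2 of the 8 were called. The median log2 change was 0.08 over the 8 genes and 0.05 over all tested genes. All 8 passed the filter on low values (above 1 FPKM in at least 3 libraries), but nes did so only through the regenerating libraries and desmb only through a floor in the deposited values. Without the rescaling the median over all genes was 0.51, and lmna, lmnb2 and nes were called higher and none lower, beside 23.7% of all genes called higher and 1.52% lower. The groups then did not overlap for lmna, lmnb1, lmnb2 and nes, all higher, beside 38.1% of all genes with such a gap upwards and 3.13% downwards. The authors' deposited table lists lmna, lmnb2 and nes as higher and desma and synm as lower past an adjusted p of 0.05, where 4.84% of 21504 genes are higher and 4.62% lower.

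**Figure D1:**
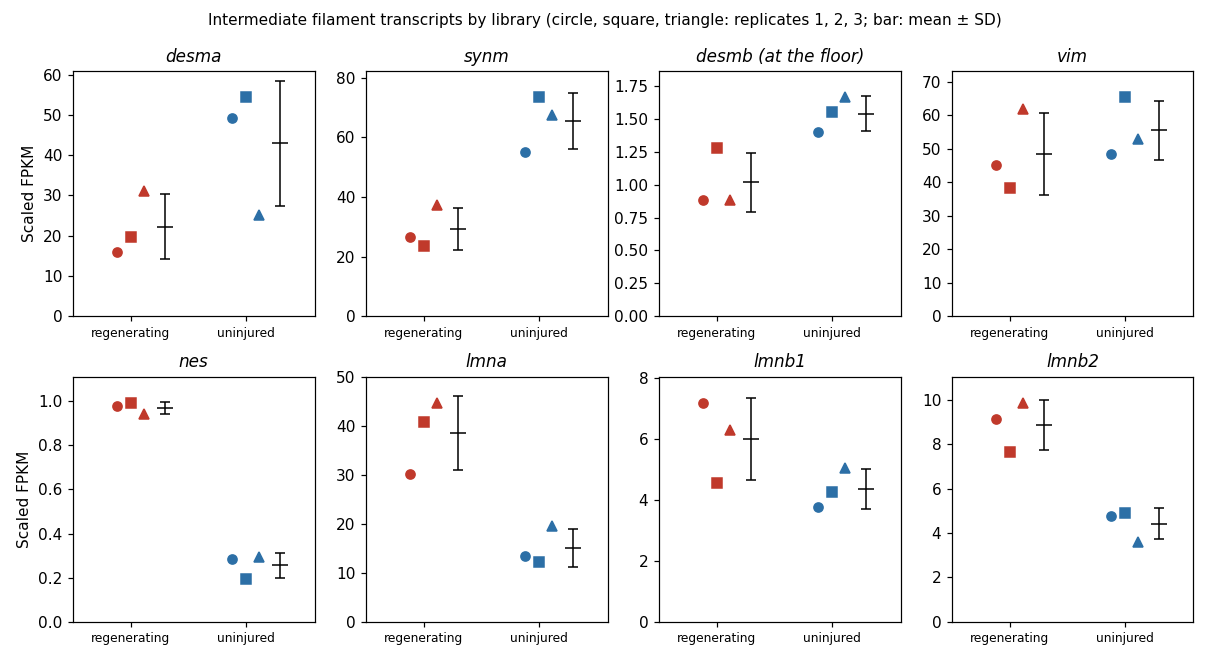
Scaled FPKM of each gene (vertical axes, linear, starting at 0) in the 3 regenerating (red) and 3 uninjured (blue) libraries, with mean ± SD as a black bar. For lmna, lmnb2 and nes every regenerating library lies above every uninjured one, and for synm every regenerating library lies below. Of all tested genes, 19.1% have such a gap upwards and 13.7% downwards. The values of desmb are a floor and not a measured level.

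The desmin gene desma (ENSDARG00000058656) had 15.8, 19.7 and 31.2 scaled FPKM in regenerating replicates 1, 2 and 3, against 49.2, 54.5 and 25.2 in uninjured replicates 1, 2 and 3. Uninjured replicate 3 lay below regenerating replicate 3, so the groups overlapped. The means were 22.2 ± 8.01 in regenerating and 43.0 ± 15.6 scaled FPKM in uninjured cells (SD, n = 3 each), and the log2 change was -0.90 (SE 0.35, 95% interval -1.69 to -0.12, limma adjusted p = 0.134). Without rescaling it was -0.31 (limma adjusted p = 0.621). The authors' deposited table gives desma a log2 fold change of -1.07 with an adjusted p of 0.0385.

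Because desmin is a muscle protein, its level was also set against 19 cardiomyocyte marker genes of the sarcomere, calcium handling and natriuretic peptide groups in the same library. The level of desma on the log2(scaled FPKM + 1) scale lay 2.40 ± 0.14 below the mean of those markers in regenerating and 2.37 ± 0.22 below it in uninjured cells (SD, n = 3 each). The difference between groups was -0.03 (exact permutation p = 0.9, two-sided, where 0.1 is the smallest p that 3 libraries against 3 allow). Its sign turned when single libraries were left out, with a range of -0.11 to 0.10. The marker mean itself was 6.53, 6.61 and 7.52 in regenerating replicates 1 to 3 and 8.13, 7.92 and 7.23 in uninjured replicates 1 to 3. Uninjured replicate 3 was the lowest and regenerating replicate 3 the highest of its group in both desma and the marker mean. The markers did not move alike. Their log2 changes ran from -2.34 for ttn.2 to 1.43 for myh6, and 6 of the 19 fell past the threshold. A small difference from their mean therefore does not show that desma followed each marker, and 3 libraries per group cannot show equality. In bulk samples, fewer cells of a type and less RNA per cell cannot be told apart.

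Over the 6 libraries the gene most like desma was the cardiac troponin T gene tnnt2a, a thin filament component and itself 1 of the 19 markers (Pearson r = 0.999 on the log2 scale). It was the closest of 3259 genes that averaged at least 10 scaled FPKM in one group and carried a plain symbol. Next came atpif1b, an inhibitor of the mitochondrial ATP synthase (r = 0.988), and mlip, the muscular lamin-interacting protein gene (r = 0.982). Such correlations over 6 libraries in 2 groups include the group difference, and they are given as a description. Of these 3 genes mlip fell, and tnnt2a and atpif1b did not pass.

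The second desmin gene, desmb (ENSDARG00000005221), was at the floor of the deposited values in all 6 libraries. The authors' deposited table gives it a mean normalised count of 0.103, against 398 for desma, and its log2 fold change has the opposite sign there (0.26). Its values of 0.887, 1.28 and 0.887 scaled FPKM in regenerating and 1.40, 1.56 and 1.67 in uninjured replicates 1 to 3 do not overlap. Before scaling the same values were 1.17, 1.42 and 1.15 FPKM in regenerating and 1.04, 1.54 and 1.20 in uninjured cells. Multiplied by length, they were between 6.66 and 7.18 times the median of uncounted genes (mean normalised count of 0) in the same library, a range of 1.08-fold. The gap between groups in desmb is therefore the scaling of a floor, and neither a level nor a direction is drawn from it. The log2 ratio of desma to desmb, 4.30 ± 0.63 in regenerating and 4.62 ± 0.70 in uninjured cells (SD, n = 3 each, exact permutation p = 0.9, two-sided), has that floor as its denominator. Whether reads of the desmin paralogs were shared between rows was not checked.

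The synemin gene synm (ENSDARG00000062350) fell. It had 26.6, 23.7 and 37.2 scaled FPKM in regenerating replicates 1 to 3, against 55.3, 73.6 and 67.7 in uninjured replicates 1 to 3. Every regenerating library lay below every uninjured one, beside 13.7% of all tested genes with such a gap in this direction. The means were 29.2 ± 7.14 in regenerating and 65.5 ± 9.35 scaled FPKM in uninjured cells (SD, n = 3 each), and the log2 change was -1.16 (SE 0.25, 95% interval -1.72 to -0.59, limma adjusted p = 0.0196). With a mean normalised count of 1084 in the authors' deposited table it is the most deeply counted gene of the set, and that table gives a log2 fold change of -1.28 with an adjusted p of 9.3e-05.

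The fall of synm depended on the scaling and on single libraries. Without rescaling its log2 change was -0.56 and did not pass (limma adjusted p = 0.252), and the groups overlapped. The adjusted p was 0.0896 without regenerating replicate 1, 0.0733 without regenerating replicate 2, 0.0515 without uninjured replicate 2 and 0.0535 without uninjured replicate 3. Within libraries, the log2 ratio of synm to desma was 0.42 ± 0.28 in regenerating and 0.67 ± 0.66 in uninjured cells (SD, n = 3 each, exact permutation p = 0.7, two-sided, adjusted p = 0.9 over 8 ratios). Against the cardiomyocyte marker mean synm lay 1.99 ± 0.26 lower in regenerating and 1.71 ± 0.59 lower in uninjured cells (exact permutation p = 0.6, two-sided, adjusted p = 0.9). Neither measure was planned in advance. The differences between groups in these 2 measures, -0.25 and -0.28, turned sign without uninjured replicate 3, to 0.12 and 0.01. The genes most like synm over the 6 libraries were palm2 (r = 0.997), ank2b, an ankyrin gene (r = 0.987), and the RNA-binding staufen gene stau2 (r = 0.985). Of these, palm2 and ank2b fell, and stau2 did not pass. As they were picked for likeness to synm over both groups, these calls add no support.

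The vimentin gene vim (ENSDARG00000010008) had 45.2, 38.3 and 61.9 scaled FPKM in regenerating and 48.3, 65.5 and 52.8 in uninjured replicates 1 to 3. The groups overlapped across most of their range. The means were 48.5 ± 12.2 in regenerating and 55.6 ± 8.91 scaled FPKM in uninjured cells (SD, n = 3 each), with a log2 change of -0.21 (SE 0.26, 95% interval -0.79 to 0.37, limma adjusted p = 0.646) that became 0.39 without rescaling (limma adjusted p = 0.438). The ratio of vim to desma, not planned in advance, was 2.85, 1.94 and 1.98 in regenerating and 0.982, 1.20 and 2.09 in uninjured replicates 1 to 3. The groups overlap through uninjured replicate 3 (exact permutation p = 0.3, two-sided, adjusted p = 0.6 over 8 ratios). The authors' deposited table gives a log2 fold change of -0.33 with an adjusted p of 0.628. Without rescaling the 95% interval of vim ran from -0.38 to 1.17, so neither scaling fixed its direction.

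Several markers of cells that are known to make vimentin moved with the groups. Over all tested genes, 7.50% were called higher and 3.94% lower. Of 10 fibroblast markers tested, 8 rose, and their summed level was 1869 to 2218 scaled FPKM in regenerating and 375 to 462 in uninjured libraries. Of 13 endothelial and endocardial markers 6 rose, with sums of 278 to 473 in regenerating and 146 to 202 in uninjured libraries, while 7 did not pass. Without regenerating replicate 1 or regenerating replicate 2 only 1 endothelial marker was called, and without uninjured replicate 3 only 2 were. Of 7 epicardial markers 5 rose, but 3 without regenerating replicate 1, regenerating replicate 3 or uninjured replicate 3, and their sums overlapped (631 to 1176 in regenerating and 525 to 999.9 scaled FPKM in uninjured libraries). Their abundant genes anxa1a and krt4 did not pass. The gene tcf21 rose and is counted in both the fibroblast and the epicardial list. No marker of these 3 lists was at or below 1 FPKM in all libraries. Of 9 macrophage and leukocyte markers 1 rose and 8 did not pass. The part of these cells in the level of vim was not tested. The genes most like vim were wnk1b (r = 0.947), the protein kinase A catalytic gene prkacaa (r = 0.932) and the stress-response transcription factor gene atf3 (r = 0.932).

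The nestin gene nes was scarce. It had 0.979, 0.992 and 0.941 scaled FPKM in regenerating replicates 1 to 3, against 0.283, 0.192 and 0.292 in uninjured replicates 1 to 3. The regenerating libraries lay together and above all uninjured ones, beside 19.1% of all tested genes with such a gap in this direction. On the log2(scaled FPKM + 1) scale, where changes of scarce genes are understated, nes measured 0.65 (SE 0.19, 95% interval 0.22 to 1.09, limma adjusted p = 0.0589), and the ratio of mean scaled FPKM was 3.80. Without rescaling nes passed, with a log2 change of 0.87 (limma adjusted p = 0.0115). Its mean normalised count is 18.3 in the authors' deposited table, which gives a log2 fold change of 1.72 with an adjusted p of 0.0498.

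The product of FPKM and length for nes was 26.3 to 39.2 times the median of uncounted genes in regenerating libraries and 4.18 to 6.66 times in uninjured libraries. The uninjured multiples were no higher than those of desmb, which is at the floor, so the ratio of 3.80 is taken against values that the floor can set. Of 10 neural and Schwann cell markers searched, the glial filament gene gfap and foxd3, s100b, plp1a and plp1b were at or below 1 FPKM in all 6 libraries. The neuronal RNA-binding protein gene elavl4 of that list rose, as 1 of 3 tested, to 3.93 ± 0.56 in regenerating cells, against 0.688 ± 0.031 scaled FPKM in uninjured cells (SD, n = 3 each, log2 change 1.54, limma adjusted p = 0.00555), and it passed the filter only by way of the regenerating libraries. The other 2 tested, mbpa and mpz, had log2 changes of -0.46 and -0.15 and did not pass (limma adjusted p = 0.298 and 0.761). Over all tested genes, 7.50% were called higher and 3.94% lower. The part of elavl4 in the level of nes was not tested. The summed level of that list was 7.27 to 9.94 scaled FPKM in regenerating and 7.92 to 10.1 in uninjured libraries. The genes most like nes were the thioredoxin gene txn (r = 0.999), the brain-type creatine kinase gene ckba (r = 0.999) and ddost, a subunit of the oligosaccharyltransferase (r = 0.998). All of these rose, while nes itself did not pass. As they were picked for likeness to nes over both groups, these rises add no support.

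The lamin A gene lmna (ENSDARG00000013415) had 30.2, 40.8 and 44.7 scaled FPKM in regenerating replicates 1 to 3, against 13.5, 12.2 and 19.5 in uninjured replicates 1 to 3. The groups did not overlap. The gap between the lowest regenerating and the highest uninjured library was wider than the range of the uninjured libraries and narrower than that of the regenerating libraries. Of all tested genes, 19.1% had a gap in this direction, of any width. The means were 38.5 ± 7.52 in regenerating and 15.1 ± 3.91 scaled FPKM in uninjured cells (SD, n = 3 each), a 2.56-fold ratio, and the log2 change was 1.31 (SE 0.27, 95% interval 0.70 to 1.91, limma adjusted p = 0.0157). This change exceeded that of 95.1% of tested genes. Without rescaling it was 1.89 (limma adjusted p = 0.00185), and the authors' deposited table gives 1.26 with an adjusted p of 0.000516. The call did not hold without regenerating replicate 2 (limma adjusted p = 0.0622) or without regenerating replicate 3 (limma adjusted p = 0.0619), although the log2 change stayed at 1.26 and 1.19.

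The B-type lamin gene lmnb2 (ENSDARG00000101624) had 9.13, 7.64 and 9.86 scaled FPKM in regenerating and 4.76, 4.89 and 3.60 in uninjured replicates 1 to 3. Its groups did not overlap, beside 19.1% of all tested genes with such a gap in this direction. Its log2 change of 0.87 (SE 0.26, 95% interval 0.29 to 1.44) missed the threshold (limma adjusted p = 0.0576). It passed without rescaling (1.39, limma adjusted p = 0.0106) and with a filter at 5 FPKM (limma adjusted p = 0.0396), and the authors' deposited table gives 0.96 with an adjusted p of 0.0188. However, lmnb2 cleared the filter at 5 FPKM only through the regenerating libraries, so that call is no separate support. The other B-type gene, lmnb1 (ENSDARG00000044299), had 7.20, 4.55 and 6.29 scaled FPKM in regenerating and 3.76, 4.28 and 5.06 in uninjured replicates 1 to 3, and its groups overlapped. Its log2 change was 0.37 (SE 0.27, 95% interval -0.24 to 0.99, limma adjusted p = 0.420), and 0.88 without rescaling (limma adjusted p = 0.0666). In the authors' deposited table lmnb1 has 0.47 with an adjusted p of 0.586.

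**Figure D2:**
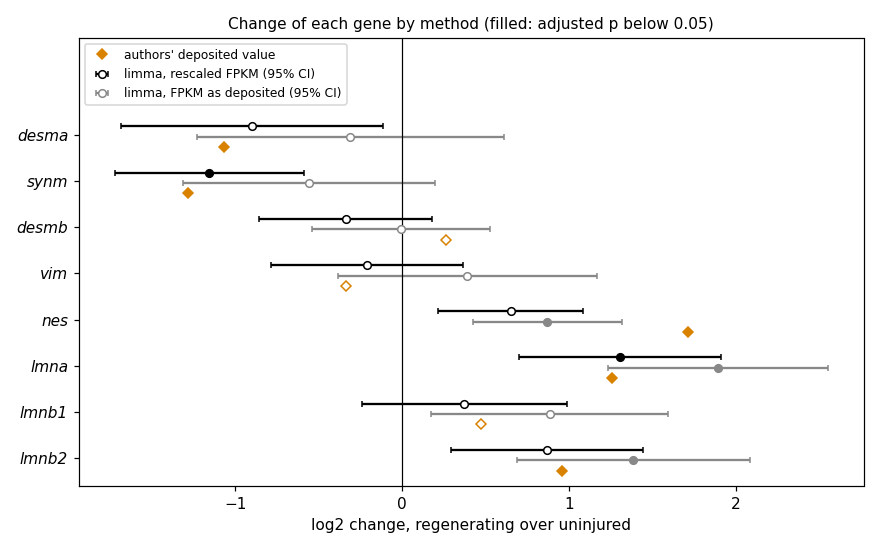
Log2 change of each gene (horizontal axis, regenerating over uninjured) from limma on rescaled FPKM (black) and on FPKM as deposited (grey), with 95% intervals, and the authors' deposited value (orange diamonds, no interval). Filled symbols have an adjusted p below 0.05. Only lmna is filled in all 3, and all changes lie further right without rescaling.

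Ratios within a library do not depend on the scaling, and they were used to ask whether A-type and B-type lamin transcripts changed alike. The ratio of lmna to the sum of lmnb1 and lmnb2 was 1.84, 3.33 and 2.76 in regenerating and 1.57, 1.32 and 2.23 in uninjured replicates 1 to 3. Regenerating replicate 1 lay below uninjured replicate 3, and the log2 ratios differed by 0.62 (exact permutation p = 0.2, two-sided, adjusted p = 0.6 over 8 ratios). The ratio of lmna to lmnb1 alone, chosen after the values were seen, was 4.16, 8.81 and 7.03 in regenerating and 3.50, 2.80 and 3.78 in uninjured cells. These groups did not overlap, and the difference of 0.93 in the log2 ratio had the smallest p the design allows (exact permutation p = 0.1, two-sided, adjusted p = 0.6). For lmna over lmnb2, also not planned in advance, the difference was 0.37 (exact permutation p = 0.3, two-sided, adjusted p = 0.6). A difference in response between the lamin genes was thus not established at this number of libraries.

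**Figure D3:**
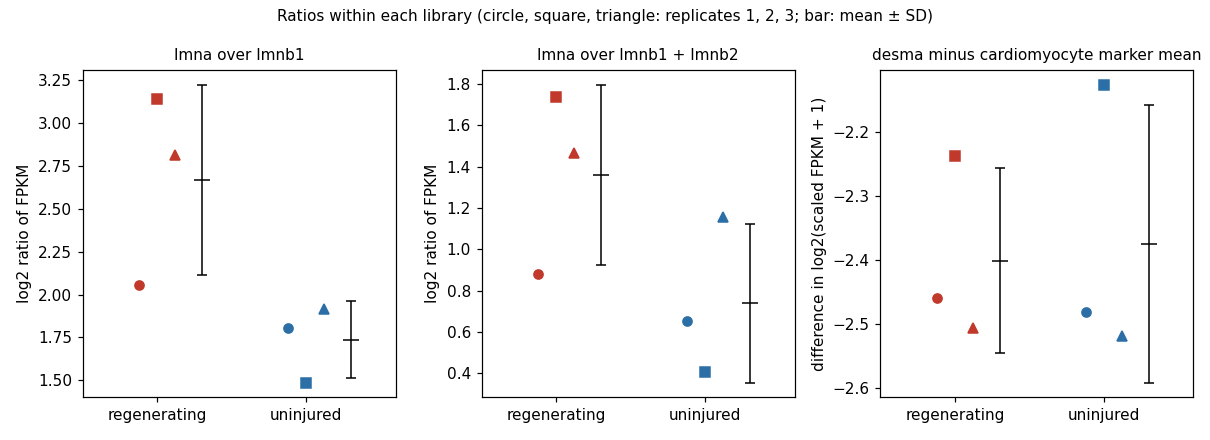
Ratios within each library for 3 regenerating (red) and 3 uninjured (blue) libraries, with mean ± SD in black; the vertical axes are log2 ratios of FPKM for the lamins and a difference in log2(scaled FPKM + 1) for desma, and do not start at 0. The lmna to lmnb1 ratio separates the groups, and the ratio to both B-type genes overlaps. The distance of desma below the cardiomyocyte marker mean also overlaps (mean 2.40 in regenerating and 2.37 in uninjured cells).

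The genes most like lmna over the 6 libraries were the prolyl isomerase gene pin4 (r = 0.995), hsbp1b (r = 0.986) and the emerin gene emd (r = 0.981). For lmnb2 they were uap1 of amino sugar synthesis (r = 0.992), the transcription factor gene wt1a, which marks epicardium (r = 0.987), and the N-cadherin gene cdh2 (r = 0.987). For lmnb1 they were nifk, whose product binds the proliferation antigen Ki-67 in human cells (r = 0.985), socs3b, an inhibitor of cytokine signalling (r = 0.978), and pdap1a (r = 0.977). Of these 9 genes, the 3 like lmna and the 3 like lmnb2 rose, and the 3 like lmnb1 did not pass. They were picked for likeness over the same libraries, group difference included, so their calls largely follow from the choice. Of 10 proliferation markers 8 rose, beside 7.50% of all tested genes. Their sums were 80.0 to 84.0 scaled FPKM in regenerating and 13.7 to 32.1 in uninjured libraries. However, 6 of the 10 passed the filter only by way of the regenerating libraries. The part of these markers in the lamin levels was not tested. Leaving out regenerating replicate 1 gave 4 called proliferation markers, and leaving out regenerating replicate 2 or 3 gave 5.

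FPKM is per length, so levels of the genes can be set beside each other. In regenerating cells the order of mean scaled FPKM was vim, lmna, synm, desma, lmnb2, lmnb1 and nes. The ranges of neighbours overlapped from vim down to desma and were separate below that. In uninjured cells the order was synm, vim, desma, lmna, lmnb2, lmnb1 and nes. There the ranges of synm and vim overlapped, as did those of vim and desma and those of lmnb2 and lmnb1. The synm range lay above that of desma, and lmna lay below all 3 of synm, vim and desma. Thus lmna was at 12.2 to 19.5 scaled FPKM in uninjured cells, below the lowest desma value of 25.2. In regenerating cells it lay above desma in every library.

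Summed over the 7 genes without desmb, filament transcripts made 135, 136 and 192 scaled FPKM in regenerating and 175, 215 and 174 in uninjured replicates 1 to 3, which overlap. The make-up of that sum was different. Lamin genes took 34.4%, 39.1% and 31.7% in regenerating libraries, against 12.6%, 9.93% and 16.2% in uninjured ones. The pair desma and synm took 31.4%, 32.0% and 35.6% in regenerating libraries, against 59.7%, 59.5% and 53.3% in uninjured ones. Within that pair synm stood apart, at 17.5% to 19.7% in regenerating and 31.6% to 38.9% in uninjured libraries. The share of desma overlapped, at 11.7% to 16.2% in regenerating and 14.5% to 28.1% in uninjured libraries. The share of vim was 31.3% ± 2.73 in regenerating and 29.5% ± 1.62 in uninjured cells (SD, n = 3 each). The lamin share and the joint share of desma and synm did not overlap between the groups, while the share of vim did. Shares of a sum are tied to each other, so with vim near level these are not separate results. These shares were chosen after the values were seen and are given with no test, and they are the same whatever the scaling of a library.

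**Figure D4:**
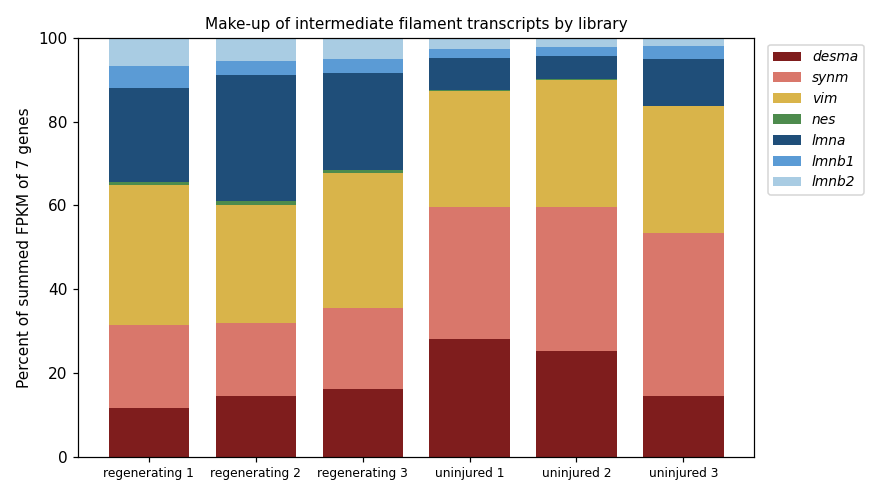
Percent of the summed FPKM of 7 intermediate filament genes (vertical axis) taken by each gene in each library (bars; regenerating to the left, uninjured to the right). The blue lamin segments sum to between 31.7% and 39.1% in regenerating libraries and between 9.93% and 16.2% in uninjured ones.

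Other genes of the filament system were taken as lists, to be read beside 7.50% of all tested genes called higher and 3.94% lower. Of 25 further symbols searched, of filament genes and the plakin gene eppk1, 19 had rows and 4 passed the filter. The neurofilament genes nefla, nefma and nefmb, the internexin genes inaa and inab, prph, gfap and the oocyte-type lamin gene lmnl3 were among 13 at or below 1 FPKM in every library. The plakin gene eppk1, whose product binds keratin and vimentin filaments in mammals, rose to 23.9 ± 8.89 in regenerating cells, against 5.22 ± 2.27 scaled FPKM in uninjured cells (SD, n = 3 each, limma adjusted p = 0.0111). It was the single gene of the 4 to pass, and since eppk1 encodes a binding partner, no further filament gene itself passed. Its adjusted p was 0.0581 without regenerating replicate 1 and 0.0537 without a filter (limma). Of 4 simple epithelial keratins, which form the filaments of epithelial cells, 3 rose. The type II keratin gene krt8 averaged 989 ± 174 in regenerating and 302 ± 25.6 scaled FPKM in uninjured cells, and its type I partner krt18a.1 averaged 366 ± 17.6 in regenerating and 51.0 ± 6.45 in uninjured cells (SD, n = 3 each). Both were far above the vim level in regenerating cells. In uninjured cells krt8 was also far above the vim mean of 55.6 scaled FPKM, and krt18a.1 was near it. The third to rise was krt94, with a log2 change of 2.40 (SE 0.31), and krt4 measured -0.79 (SE 0.45, limma adjusted p = 0.289).

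Linkers join desmin and vimentin filaments to junctions, the membrane skeleton, actin and chaperones. Of 26 tested, 7 fell, 1 rose and 18 did not pass, beside 3.94% of all tested genes called lower and 7.50% higher. The median log2 change was -0.59 against 0.05 over all tested genes. The nebulin-related anchoring gene nrap, which acts in myofibril assembly, fell to 2.90 ± 0.83 in regenerating cells, against 15.3 ± 5.38 scaled FPKM in uninjured cells. The ankyrin gene ank3a fell to 3.92 ± 0.93 in regenerating cells, against 15.2 ± 0.38 in uninjured cells, and the filamin C gene flnca to 11.2 ± 3.51, against 32.6 ± 9.58 scaled FPKM in uninjured cells (SD, n = 3 each). The other 4 that fell were ank3b, the spectraplakin gene macf1a, and the envoplakin and periplakin genes evpla and ppl, which belong to epithelial cornified envelopes in mammals. Those 4 were named after their values were seen. The single rise was krt8, itself a filament gene that the keratin list holds too. The small heat shock gene hspb1 had 302 ± 72.6 in regenerating and 260 ± 54.9 scaled FPKM in uninjured cells (log2 change 0.21, SE 0.27, limma adjusted p = 0.654). Without rescaling 3 linkers were lower and 4 higher, beside 1.52% of all genes lower and 23.7% higher. The linker median was then -0.01, against 0.51 over all tested genes. Without regenerating replicate 1, 2 or 3 or uninjured replicate 3 the count of called linkers was 4 each time.

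Partners of lamins at the nuclear envelope were called in both directions, in small numbers. Of 18 tested, 2 rose, 2 fell and 14 did not pass, beside 7.50% of all tested genes called higher and 3.94% lower. The median log2 change was 0.04, against 0.05 over all tested genes. The emerin gene emd, an inner membrane protein that binds lamins, rose to 14.1 ± 1.79 in regenerating cells, against 6.76 ± 1.29 scaled FPKM in uninjured cells (SD, n = 3 each, log2 change 0.97, SE 0.25, limma adjusted p = 0.0363). The retinoblastoma gene rb1, which A-type lamins hold in the nucleus in mammalian cells, rose by 1.20 (SE 0.28). The nesprin-2 gene syne2b, which links the nucleus to the cytoskeleton, fell by 1.22 (SE 0.33), and mlip fell by 1.46 (SE 0.40). The barrier-to-autointegration gene banf1, which ties chromatin to the envelope, had 45.7 ± 8.31 in regenerating and 29.5 ± 3.86 scaled FPKM in uninjured cells (limma adjusted p = 0.137). The nuclear pore gene nup153 measured -0.25 (limma adjusted p = 0.564) and 0.32 without rescaling. Without rescaling 4 partners were higher and none lower, beside 23.7% of all genes higher and 1.52% lower. The count of called partners was 0 without regenerating replicate 1 or 2. It was 1 without regenerating replicate 3 or uninjured replicate 1 or 2, and 2 with the replicate number as a block.

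Enzymes that mature lamins add and trim a lipid tail. Of 5 tested, none passed in limma, beside 7.50% of all tested genes called higher and 3.94% lower. The gene zmpste24 encodes the protease that releases mature lamin A from its precursor. It had 6.85 ± 0.99 in regenerating and 2.99 ± 1.44 scaled FPKM in uninjured cells (SD, n = 3 each, log2 change 1.02, SE 0.31, limma adjusted p = 0.0631). It passed without rescaling (limma adjusted p = 0.00682), where 23.7% of all genes were called higher. The farnesyltransferase subunit gene fnta measured 0.48 (SE 0.40). Of 20 rows of kinases and phosphatases that act on filaments, 2 rose and none fell, a share near the 7.50% of all tested genes called higher. The mitotic kinase gene cdk1, which phosphorylates lamins and vimentin when cells divide, rose to 9.26 ± 1.49 in regenerating cells, against 0.777 ± 0.553 scaled FPKM in uninjured cells, and only the regenerating libraries carried it past the filter. The p21-activated kinase gene pak1 rose to 28.7 ± 3.43 in regenerating cells, against 10.6 ± 2.47 scaled FPKM in uninjured cells (SD, n = 3 each). Without rescaling 5 of these rows were higher, beside 23.7% of all genes, and without regenerating replicate 1 only 1 row was called.

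**Figure D5:**
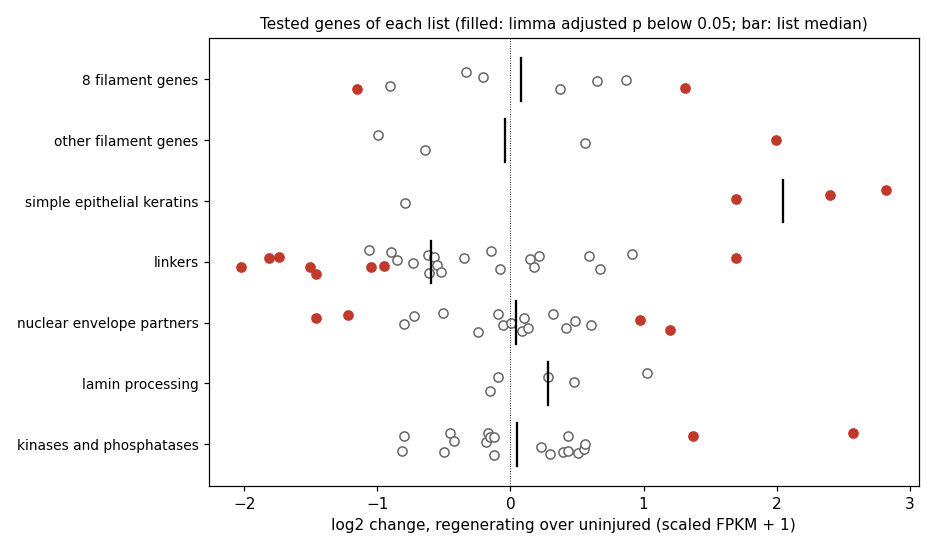
Log2 change (horizontal axis, regenerating over uninjured, scaled FPKM + 1) of every tested gene of the 8 filament genes and 6 related lists (rows; points are spread vertically for legibility), with filled points for a limma adjusted p below 0.05 and a bar at each list median. Linkers lie mostly to the left (median -0.59), lamin partners are centred near 0 (0.04), and 3 of 4 simple keratins lie to the right.

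The libraries differed in ways that bear on these levels. Genes above 1 FPKM numbered 13466 to 13723 in regenerating and 11294 to 12207 in uninjured libraries. Spearman correlations over tested genes were 0.876 to 0.915 among regenerating and 0.802 to 0.827 among uninjured libraries. The part of these 2 differences in the results was not tested. Transcripts of the 13 mitochondrially encoded genes took 10.3% to 18.8% of summed FPKM in regenerating and 21.8% to 41.9% in uninjured libraries, which is why FPKM was rescaled. Cardiomyocyte markers were abundant in all 6 libraries, summing to 5962 to 11449 scaled FPKM in regenerating and 8169 to 16853 in uninjured libraries, with myl4 and actc1b at or below 1 FPKM throughout; 6 of 19 tested fell. Among 8 markers of smooth muscle and pericytes, 5 fell and 2 rose, and of 6 thrombocyte markers 2 fell. Of 8 erythrocyte marker rows 4 rose, among them alas2, which passed the filter only by way of the regenerating libraries. Over all tested genes, 7.50% were called higher and 3.94% lower. The smooth muscle count was 4 without regenerating replicate 1. For thrombocytes it was 0 without regenerating replicate 1 and 1 without regenerating replicate 3. For erythrocytes it was 1 without regenerating replicate 1 or 2, 2 without uninjured replicate 3 and 7 without uninjured replicate 1. The libraries, titled as cardiomyocytes, therefore hold transcripts of cardiomyocyte markers along with genes used as markers of other cell types. Which cells made the latter, and how pure the sort was, was not tested. Their part in the filament gene results was not tested beyond the marker values given.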

How the data were processed

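The submitters' processing notes list the GRCz10 build, the aligner STAR 2.5.3a and the quantifier RSEM 1.3.0, and also R 3.3.3 and DESeq2. Per the labels' protocols, sorted cells were lysed directly and their RNA was amplified with a low-input cDNA kit before paired-end sequencing. The authors deposited log2 FPKM per library, per the file headers, with an offset of 0.1 that the values show: all lie on a grid of 0.01 FPKM (within 0.001) and the lowest is 0.1. It was subtracted here. The authors also deposited a mean normalised count per gene (a signal averaged over libraries), a gene length, a log2 fold change, a p-value and an adjusted p. Counts per library are not given. Genes with a mean normalised count of 0 stay above 0 FPKM, so the values hold a floor. Its median, multiplied by length in kilobases, ran from 0.145 to 0.208 between libraries, so low genes are less precise.

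FPKM was divided by median-ratio factors (8924 genes above 1 FPKM in every library). Genes above 1 FPKM in at least 3 libraries (13319) were fitted as log2(value + 1) in limma 3.58.1 (R 4.3.3) with an intensity trend and group as the only term, and p-values were Benjamini-Hochberg adjusted over all of them. Single ratios were compared by exact permutation over libraries (scipy 1.17.1). Only the ratios of lmna to both B-type genes together, of desma to desmb and of desma against the cardiomyocyte markers were planned. Named genes are the 8 filament genes, up to 4 called genes with the smallest p and the 2 most abundant of each related list that is described, and the 3 closest to each filament gene by Pearson correlation. Of these, iffo2a, ppp2cb and rock2b (ENSDARG00000004877) are not described above. Their log2 changes were 0.56, 0.56 and -0.81, and none passed (limma adjusted p = 0.264, 0.158 and 0.0783). Genes named from lists of other cell types were restricted to those a result turns on. Genes and lists were chosen with earlier results of these data known. Groups and replicate numbers come from the sample titles. Alternatives were other scalings, pseudocounts and filters, no trend, a replicate block and leaving out each library. No sequences or coordinates are given, since the reference tables used here hold no sequence and are of another build.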

Additional observations from a re-analysis of the deposited data

How the results depend on the processing

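Direction was kept by lmna, lmnb1, lmnb2 and nes (higher) and by desma and synm (lower) in every fit run, no direction is given for desmb, and vim turned without rescaling, to 0.39. Over 17 fits each of lmna and synm, 15 and 11 passed the threshold, and lmnb2 passed in 2 of 17 and nes in 2 of 16. For lmnb2, 1 of the 2 was the fit with a filter at 5 FPKM, which only its regenerating libraries cleared. Without a filter synm had a limma adjusted p of 0.053 and nes one of 0.031. Of the 8 filament genes, 2 were called, and 0 to 2 when single libraries were left out. Of all genes, 1524 were called, 681 without a filter, 3364 without rescaling (94.0% of them higher, against 65.6%) and 512 to 1599 with single libraries left out. Without a filter the called genes numbered 0 for the list of other filament genes with eppk1, 3 for linkers and 0 for lamin partners. Lamin partners had 2 with the total without mitochondrial genes. For lamin processing enzymes 1, zmpste24, was called with a filter at 5 FPKM, which only its regenerating libraries cleared, and 1 without rescaling. Without rescaling 5 kinase and phosphatase rows were called. With single libraries left out the called genes ranged from 0 to 1 for the list of other filament genes, where eppk1 was the one called. The ranges were 4 to 6 for linkers, 0 to 3 for lamin partners, 0 to 1 for processing enzymes and 1 to 2 for kinases and phosphatases. For cell markers without a filter, 1 endothelial, 3 epicardial, 1 erythrocyte, 0 thrombocyte and 3 proliferation genes were called, and 7 erythrocyte rows without rescaling. The cause of these changes was not tested; fewer libraries leave fewer degrees of freedom. The difference of desma against cardiomyocyte markers, -0.03, was 0.010 with a pseudocount of 5 and ran from -0.11 to 0.10 with single libraries left out. With single libraries left out the lamin A to B-type difference ran from 0.43 to 0.86. Among genes of the lists, nup153 (0.32), tpm4a (0.13), cd74a (0.026) and cd74b (0.023) turned sign without rescaling, and anxa1a did without regenerating replicate 1 (-0.01) or uninjured replicate 1 (-0.023), within a range of up to 0.57. The difference between groups in the log2 ratio of synm to desma ran from -0.50 to 0.12 with single libraries left out. The difference for synm against the markers ran from -0.58 to 0.012. Both differences were highest without uninjured replicate 3.

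Same-numbered libraries did not deviate together (correlations of deviations from group means -0.01, -0.00 and -0.06), and the titles give them only a shared number. With 3 libraries per group these values do not settle whether same-numbered libraries shared a batch. A replicate block called 2 of the 8 filament genes, 1402 of all genes and 2 lamin partners. No outlier search was made, since each group has 3 libraries. Depth per library is not known, and desmb and the uninjured values of nes lie at or near the floor.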
